A study of Mus musculus with 6 samples.

Results

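The genes described here make, cut and bind hyaluronan, a sugar polymer of the matrix around cells. They are the hyaluronan synthases Has1, Has2 and Has3, the UDP-glucose dehydrogenase Ugdh, the hyaluronidases Hyal1 and Hyal2, and the receptors Cd44 and Hmmr. The 8 symbols were proposed with earlier results of these arrays known, including a lower Cd44 signal, and the probes tested were selected on their detection p-value. Of 45281 probes on the array, 18 carried one of these symbols and 6 of those were tested, that is, had a detection p-value under 0.05 on 2 or more of the 6 arrays. The 6 tested probes covered 4 of the 8 genes, with 1 probe each for Has2, Hyal2 and Hmmr and 3 for Cd44. Has1, Hyal1 and Ugdh had probes but none was tested, and no probe carried the symbol Has3 in the annotation used here.

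The cells were 4T1ch9, a clone of the Balb/c mouse mammary carcinoma line 4T1, infected with lentivirus carrying a short hairpin RNA (shRNA) and kept in puromycin for 5 to 6 days. The non-targeting hairpin was on 2 arrays, 1 with 6 µl and 1 with 18 µl of virus. The hairpin against Stc1, a secreted glycoprotein, was on 2 arrays at 6 µl and 2 at 18 µl. All 6 samples thus share 1 clone, the lentivirus and the selection, and the number of hairpin sequences used against Stc1 was not given in the sources used here. The labels leave unsaid whether replicate arrays hold separate cultures, so p-values here measure the spread between these arrays, which may be technical. Mean bead intensity per array ran from 228 to 311 and probes detected from 16252 to 17507, and no pair of arrays held identical values. Stc1 itself was 2.54-fold lower with its hairpin (log2 difference -1.35, SE 0.14, limma adjusted p = 0.0025) and was above background on every array. Of 9 epithelial markers, 4 (Krt8, Krt18, Krt7 and Cldn3) were detected on all 6 arrays, while Krt19 and Epcam were detected on none. Another 3 (Cdh1, Cldn4 and Cldn7) were not detected on every array. Cdh1 was detected on 1 non-targeting and 3 Stc1 arrays, at log2 intensities between 4.33 and 5.20, and Cldn7 on 2 Stc1 arrays.

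Hyaluronan is a long chain of alternating glucuronic acid and N-acetylglucosamine. The synthases, which sit in the plasma membrane, build it from UDP-sugars and push it out of the cell, and Ugdh supplies the UDP-glucuronic acid. Hyal2, anchored at the cell surface, cuts long chains and Hyal1 degrades fragments in lysosomes. Cd44 is the main receptor at the cell surface, and Hmmr (also called RHAMM) binds hyaluronan and also the mitotic spindle. In mammary carcinoma cells a hyaluronan coat and Cd44 are known for their part in adhesion and migration.

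The 250 bases before the annotated start are shown for the receptor gene whose brightest probe was lower with the Stc1 hairpin and for the hyaluronidase gene whose probe did not pass. RefSeq held such a sequence for 6 of the 8 genes (build GRCm38.p6). Cd44 lies at chr2:102901666-102901915 on the minus strand and Hyal2 at chr9:107568913-107569162 on the plus strand, both written 5′ to 3′.
Cd44: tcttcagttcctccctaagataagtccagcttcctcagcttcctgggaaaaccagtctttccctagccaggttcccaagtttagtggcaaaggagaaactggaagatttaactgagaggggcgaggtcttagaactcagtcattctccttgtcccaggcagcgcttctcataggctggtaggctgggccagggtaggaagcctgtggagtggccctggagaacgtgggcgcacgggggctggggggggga
Hyal2: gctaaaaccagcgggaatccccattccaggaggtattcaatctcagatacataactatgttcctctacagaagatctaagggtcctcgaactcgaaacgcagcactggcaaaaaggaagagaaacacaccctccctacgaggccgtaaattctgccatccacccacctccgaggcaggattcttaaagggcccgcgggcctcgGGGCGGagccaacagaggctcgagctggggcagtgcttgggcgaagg
Capitals mark a GC box, GGGCGG on either strand, which was found at 1 place in the Hyal2 window and at none in the Cd44 window. It occurred in 32.7% of the 32851 RefSeq windows of this length. Neither window held an AP-1 consensus (TGANTCA, 6.75% of windows) or CCAAT (33.9%), also searched on both strands. These matches describe letters in the window only.

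Among the synthases, Has2 was lower in cells given the Stc1 hairpin, by about 2-fold after the normalisation used here. Its probe read 177 units of bead intensity on the 6 µl non-targeting array and 170.0 units on the 18 µl one, against array medians of 52.1 and 54.1. With the Stc1 hairpin it read 120.4 and 122 units at 6 µl and 108 and 92.0 units at 18 µl, against array medians of 53.3 to 59.4. All 4 arrays of the Stc1 hairpin were thus below both non-targeting arrays before any normalisation, and all 6 values had a detection p-value of 0. After background correction and quantile normalisation (neqc) Has2 stood at a log2 intensity of 7.36 and 7.17 without the Stc1 hairpin. With it, the values were 6.06 and 6.39 at the lower volume and 6.34 and 5.87 at the higher. The groups did not overlap on this scale either, and the gap between them was wider than the spread inside any group. The mean was 7.26 ± 0.14 (SD, n = 2) without and 6.16 ± 0.25 (SD, n = 4) with the Stc1 hairpin. Has2 thus fell 2.14-fold, a log2 difference of -1.10 with an SE of 0.16 (95% interval from -1.47 to -0.72), at a limma adjusted p = 0.00883. The difference was smaller with the authors' processed values (-0.81) and with background correction without the negative controls (-0.75), so its size depended on the processing.

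The fall of Has2 was seen at both volumes of virus. It was 2.05-fold at 6 µl (log2 difference -1.04, SE 0.19, limma adjusted p = 0.0266) and 2.23-fold at 18 µl (-1.16, SE 0.19, limma adjusted p = 0.0172), where both comparisons use the same 2 non-targeting arrays. At 6 µl Has2 did not pass in 5 of 12 alternatives, without either non-targeting array, without either Stc1 array of that volume or with no filter on dim probes (limma adjusted p between 0.0782 and 0.136). At 18 µl it did not pass in 4 of 12, without either non-targeting array, without replicate 2 of that volume or with no filter (limma adjusted p between 0.0608 and 0.111). Set against the single non-targeting array of its own volume, Has2 differed on the log2 scale by -1.30 and -0.97 at 6 µl and by -0.82 and -1.30 at 18 µl. Each of the 4 Stc1 arrays was thus lower also at matched volume. The fall did not pass when only the 18 µl non-targeting array was kept (-1.01, limma adjusted p = 0.0823) or only the 6 µl one (-1.19, limma adjusted p = 0.0503), and it passed in the other 12 of 14 alternatives. In bulk RNA, fewer cells that make Has2 and less Has2 RNA per cell cannot be told apart.

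**Figure D1:**
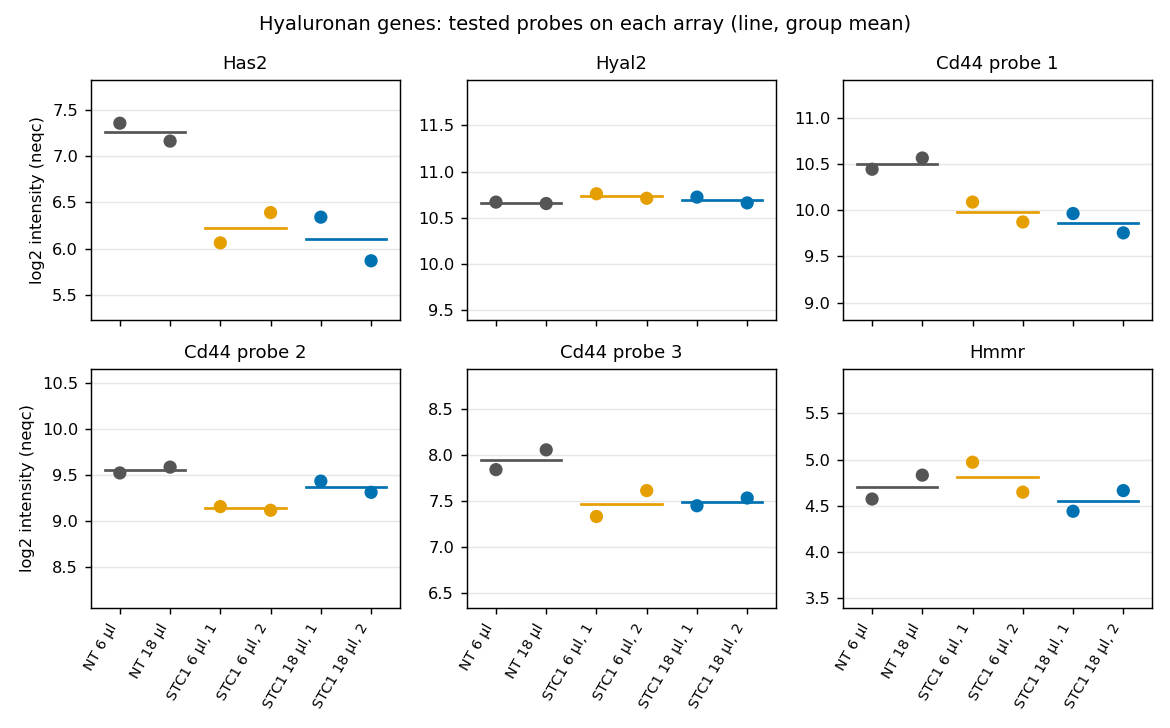
Log2 intensity after neqc (y axis) of the 6 tested probes on each of the 6 arrays (x axis; NT, non-targeting), with a line at each group's mean and a y axis of the same length in each panel. Has2 and the Cd44 probes lie lower on all 4 arrays of the Stc1 hairpin than on both NT arrays, whereas Hyal2 stays between 10.65 and 10.76 and Hmmr overlaps.

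The other synthases and Ugdh gave no level, and no probe carried the symbol Has3. The 2 probes of Has1 read between 41.3 and 63.3 units and were detected on none of the arrays. The single probe of Ugdh read between 56.8 and 65.0 units, with detection p-values from 0.0374 to 0.124, and passed on 1 array, a Stc1 array at 18 µl. No change can be stated for any of these genes. Of 14 other genes that supply the sugar precursors, 7 were tested, 1 was lower, none was higher and 6 did not pass. The lower one was Hk1, a hexokinase, the enzyme that phosphorylates glucose on entry into the cell. Hk1 was 2.19-fold lower (log2 difference -1.13, SE 0.19, limma adjusted p = 0.0146), at 6.70 and 6.73 on the non-targeting arrays and between 5.24 and 6.02 on the 4 Stc1 arrays. Its difference was -0.74 with the authors' processed values and -0.67 with background correction without the negative controls. Hk1 did not pass in 4 of 14 alternatives: without the non-targeting array at 6 µl (limma adjusted p = 0.0939) or at 18 µl (0.0862), without replicate 2 of the Stc1 arrays at 18 µl (0.0507) and with no filter on dim probes (0.0564). A second Hk1 probe was detected on no array. Over the 7 genes the median log2 difference was 0.05, beside 0.03 over all 9754 genes tested.

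Of the hyaluronidases, Hyal2 kept nearly the same signal in all samples after neqc. The non-targeting arrays gave log2 intensities of 10.67 and 10.65, the Stc1 hairpin 10.76 and 10.71 at 6 µl and 10.72 and 10.66 at 18 µl. The groups overlapped on this scale. The difference was 0.05 with an SE of 0.11 (95% interval from -0.19 to 0.29), at a limma adjusted p = 0.795. A change of Hyal2 inside that interval was not detectable. With median scaling the difference was 0.26 (limma adjusted p = 0.294), or 0.11 relative to the median of all probes. As deposited, the probe read 1391 and 1573 units without and 2145, 1796, 1681 and 1614 units with the Stc1 hairpin. Every Stc1 array thus lay above both non-targeting arrays before normalisation. The 2145 units belong to the array with the highest mean intensity, and the 1391 units to the one with the lowest. Hyal1 gave no level, since 1 of its 2 probes was detected on no array and the other on the 18 µl non-targeting array alone, at 64.8 units with a detection p-value of 0.0182.

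No gene on the list of other enzymes of breakdown passed. Of its 13 symbols, where Tmem2 is an older name of Cemip2, 5 were tested and none rose or fell. Their median log2 difference was 0.15, which is the value of Oga. The list was broad, since Oga and Glb1 on it are not enzymes that cut hyaluronan. By the brightest probe of each gene Hexa, a subunit of lysosomal hexosaminidase, was nearest at 0.39 (SE 0.13, limma adjusted p = 0.101). It was 8.37 and 8.23 on the non-targeting arrays and between 8.50 and 8.85 on the Stc1 arrays, with no overlap, and it passed with the authors' processed values (0.36, limma adjusted p = 0.0378), with background correction without the negative controls (0.35, limma adjusted p = 0.032) and with median scaling (0.57, limma adjusted p = 0.0172). Glb1, a lysosomal galactosidase, was at 0.17 by its brighter probe and -0.14 by the other. Cemip2, a cell-surface hyaluronidase, was at -0.12 by its brightest probe, with further probes at -0.02 and -0.18. Gusb, named after its values were seen, was at 0.10 by its brightest probe and at -0.15 and -0.84 by dimmer ones. The probe at -0.84 came nearer to passing than Hexa (limma adjusted p = 0.0675). It was at 6.34 and 5.97 on the non-targeting arrays and between 4.73 and 5.70 on the Stc1 arrays, so the Gusb probes disagreed.

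Cd44, the receptor, was lower by its brightest probe, and 2 dimmer probes lay lower without passing. The brightest probe had log2 intensities of 10.45 and 10.57 without the Stc1 hairpin, of 10.09 and 9.87 with it at 6 µl, and of 9.96 and 9.76 at 18 µl. All 4 Stc1 arrays lay below both non-targeting arrays. The fall was 1.5-fold, a log2 difference of -0.59 with an SE of 0.12 (95% interval from -0.87 to -0.30), at a limma adjusted p = 0.0297. On the deposited scale the separation was not seen, since this probe read 1196 and 1483 units without and 1373, 1013, 999.8 and 877 units with the Stc1 hairpin. The 1373 units belong to the array with the highest mean intensity, 311 units, and the 1196 units to the one with the lowest, 228 units.

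The second Cd44 probe was at 9.52 and 9.58 on the non-targeting arrays, 9.16 and 9.12 at 6 µl and 9.43 and 9.31 at 18 µl. Its 4 Stc1 arrays were again below both non-targeting arrays, but the difference of -0.30 (SE 0.11, limma adjusted p = 0.127) did not pass. The third probe was at 7.84 and 8.05 on the non-targeting arrays, 7.33 and 7.61 at 6 µl and 7.45 and 7.53 at 18 µl. It too was separated, with a difference of -0.47 (SE 0.13, limma adjusted p = 0.062). On the deposited scale both overlapped, as the brightest did. The second read 650.5 and 760.4 units without and 740.5, 616, 695 and 660.2 units with the Stc1 hairpin, and the third 232 and 287 units without and 237, 239, 196 and 217 units with it. The third probe passed in 3 of 14 alternatives, with the authors' processed values (-0.40, limma adjusted p = 0.0201), with background correction without the negative controls (-0.38, limma adjusted p = 0.0176) and with detection required on all arrays (limma adjusted p = 0.0427). The second passed in 1, background correction without the negative controls (-0.28, limma adjusted p = 0.0419), and was at -0.088 with median scaling, or -0.24 relative to the median of all probes. The 3 probes carry 1 transcript accession in the annotation and measure the same RNA samples, so they are not independent of each other. The 95% intervals of all 3 overlapped (-0.87 to -0.30, -0.55 to -0.05 and -0.76 to -0.17, from the brightest to the dimmest).

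**Figure D2:**
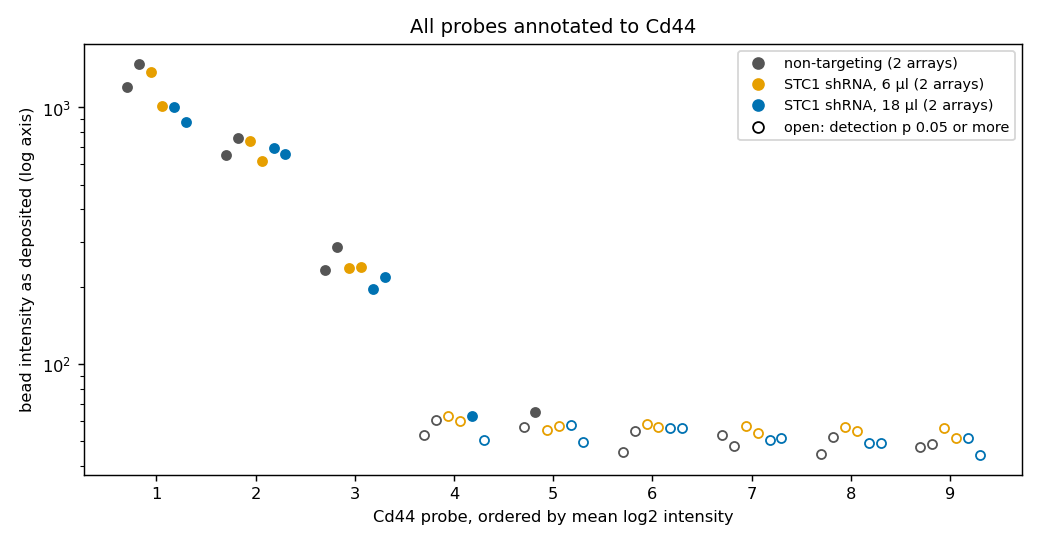
Bead intensity as deposited (y axis, log scale) of the 9 probes annotated to Cd44 (x axis, ordered by mean log2 intensity), 1 point for each of the 6 arrays, open where the detection p-value is 0.05 or more. Probes 1 to 3 are detected on all arrays and probes 4 to 9 lie between 44.0 and 65.0 units.

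The other 6 Cd44 probes were not tested. They read between 44.0 and 65.0 units, 4 were detected on no array, and 2 were detected on 1 array each, the 18 µl non-targeting array with a detection p-value of 0.0171 and an 18 µl Stc1 array with one of 0.0246. These 2, with the Hyal1 and Ugdh probes detected on 1 array, were the probes just outside the threshold. Which Cd44 exons or isoforms the 9 probes read could not be settled, since their sequences were not used here. At 6 µl the brightest probe differed by -0.52 (SE 0.14, limma adjusted p = 0.0784) and at 18 µl by -0.65 (SE 0.14, limma adjusted p = 0.0467), again with shared non-targeting arrays. Against the non-targeting array of the same volume it differed by -0.36 and -0.57 at 6 µl and by -0.60 and -0.81 at 18 µl.

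The call for Cd44 depended on single arrays. At 18 µl the brightest probe did not pass in 9 of 12 alternatives: without any 1 of the 6 arrays, with median scaling, with the replicate block and with all probes kept (limma adjusted p between 0.0568 and 0.177). Over both volumes it passed in 8 of 14 alternatives and did not without either non-targeting array (limma adjusted p = 0.13 and 0.163), without replicate 2 of the Stc1 arrays at 6 µl (0.094) or at 18 µl (0.0644), with no filter on dim probes (0.0526) or with median scaling (-0.38, limma adjusted p = 0.13), where it stood at -0.53 relative to the median of all probes. Its log2 difference was below 0 in all 14, between -0.65 and -0.38.

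**Figure D3:**
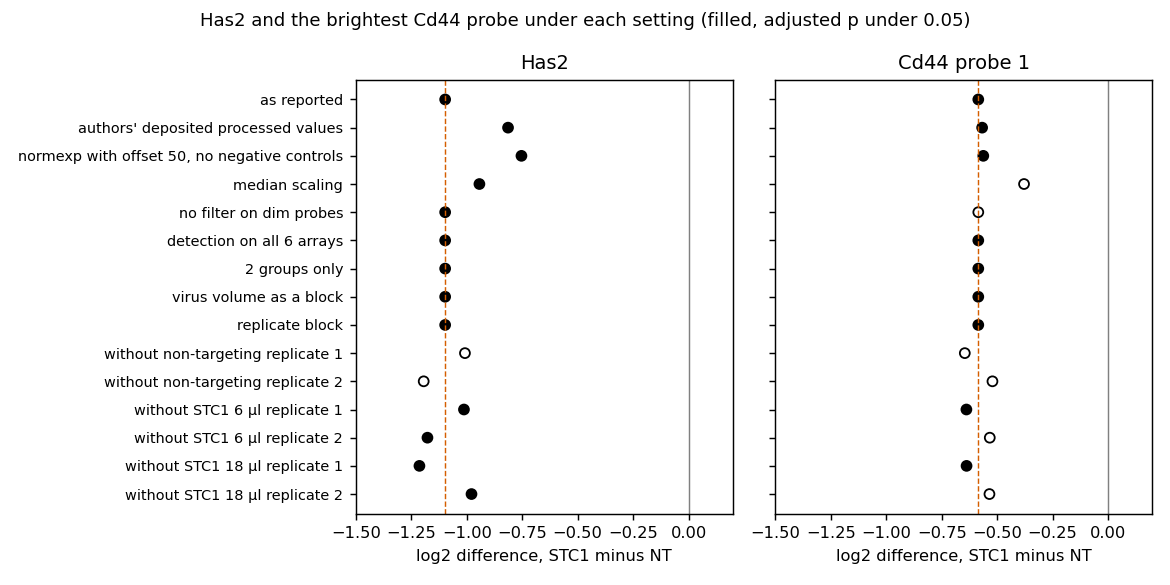
Log2 difference between Stc1 and non-targeting arrays (x axis) for Has2 and the brightest Cd44 probe under the reported setting and 14 alternatives (y axis), filled where the adjusted p is under 0.05, with a dashed line at the reported value. Has2 passes in 12 alternatives and the Cd44 probe in 8, and every value of both lies below 0.

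Hmmr sat at the limit of detection. Its brighter probe just met the threshold, with detection p-values of 0.031 on the non-targeting array at 18 µl and 0.00855 on replicate 1 of the Stc1 arrays at 6 µl, and of 0.0598 to 0.276 on the other arrays. It gave log2 intensities of 4.57 and 4.83 without the Stc1 hairpin, 4.97 and 4.65 at 6 µl and 4.44 and 4.66 at 18 µl, so the groups overlapped. The difference was -0.02 (SE 0.14, limma adjusted p = 0.942), and this near background a change of the transcript would be hard to see. The second Hmmr probe was detected on no array.

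Of 27 other hyaluronan receptors and binding proteins, 9 were tested and none rose or fell by the brightest probe of each gene, with a median log2 difference of -0.04. Habp4, an intracellular hyaluronan-binding protein, was at -0.29 (limma adjusted p = 0.155) and 0.09 by its 2 probes. C1qbp, a mitochondrial protein that also binds hyaluronan, was at -0.26 (limma adjusted p = 0.259). Stab1, stabilin 1, a scavenger receptor of the family that takes up hyaluronan, was at 0.23 (limma adjusted p = 0.266). A dimmer Stab1 probe was lower at -0.50 (limma adjusted p = 0.0377), so the Stab1 probes disagreed. The dimmer one was near background, at 5.06 and 4.87 on the non-targeting arrays and between 4.41 and 4.54 on the Stc1 arrays. It was detected on the 2 non-targeting arrays alone and met the filter only through them.

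Partners of Cd44 included the largest differences found in the pathway lists. Of 19 genes 13 were tested, 2 fell, none rose and 11 did not pass, with a median log2 difference of -0.21. Msn encodes moesin, which ties the tail of Cd44 to actin. Its brightest probe was at 8.34 and 7.94 on the non-targeting arrays and between 6.87 and 7.17 on the 4 Stc1 arrays, a 2.25-fold fall (log2 difference -1.17, SE 0.15, limma adjusted p = 0.0055). A dimmer Msn probe detected on all 6 arrays was at 0.05 (limma adjusted p = 0.845), so the 2 probes disagreed, and another was detected on no array. The brightest Msn probe missed the threshold without the non-targeting array at 6 µl (-0.97, limma adjusted p = 0.0544). Slc7a11, the cystine transporter that variant forms of Cd44 bind, fell 2.55-fold (log2 difference -1.35, SE 0.13, limma adjusted p = 0.0016), and its second tested probe was also lower (-0.51, limma adjusted p = 0.0459).

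Of 21 mitotic genes and spindle partners of Hmmr, 16 were tested, 1 fell, none rose and 15 did not pass by the brightest probe of each gene, with a median log2 difference of 0.03. The 1 was Aurka, a spindle kinase, at 11.53 and 11.78 on the non-targeting arrays and between 10.96 and 11.12 on the Stc1 arrays (1.56-fold lower, -0.64, SE 0.12, limma adjusted p = 0.0199). Aurka did not pass in 6 of 14 alternatives, with limma adjusted p between 0.0504 and 0.14 when leaving out every array in turn but replicate 1 of the Stc1 arrays at 18 µl, and 0.0708 with median scaling. The exception among dimmer probes was one of Cenpf, a kinetochore protein, named after its values were seen. Its brightest probe was at 0.36 (limma adjusted p = 0.18), and a dimmer one rose by 0.49 (limma adjusted p = 0.0381).

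**Figure D4:**
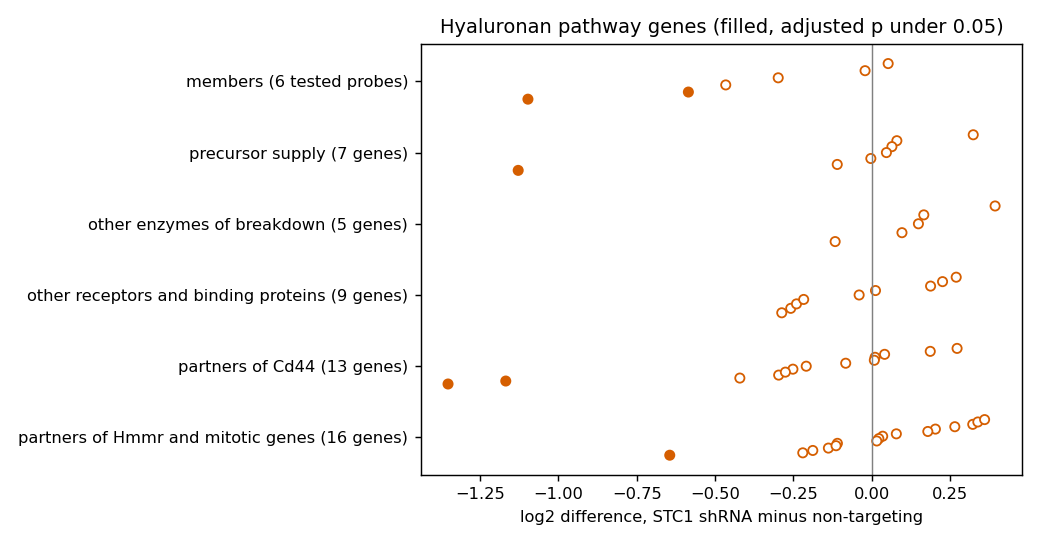
Log2 difference between the 4 Stc1 and 2 non-targeting arrays (x axis) for the 6 tested probes of the hyaluronan genes and for the brightest tested probe of each gene of the 5 pathway lists (rows), filled where the adjusted p is under 0.05. The filled points are Has2 and the brightest Cd44 probe, then Hk1, Slc7a11, Msn and Aurka, all below 0.

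Counted together, 2 of the 6 tested hyaluronan probes were called in the comparison of both Stc1 groups with non-targeting, both lower, where 7.78% of all 18076 tested probes were called. At 6 µl 1 of 6 was called, beside 3.82% of all tested probes, and at 18 µl 2 of 6, beside 3.97%. In 4 of the 6 probes, Has2 and the 3 of Cd44, every Stc1 array lay below both non-targeting arrays, beside 16.5% of all tested probes. The median log2 difference of the 6 probes was -0.38, beside 0.01 over all tested probes. In the pathway lists, 1 of 7 tested genes was called lower for precursor supply, 2 of 13 for partners of Cd44 and 1 of 16 for mitotic genes. None of the 5 on the broad list of other enzymes of breakdown or the 9 for other receptors and binding proteins was called. No gene of these lists was called higher. Over all genes tested, 3.72% were called lower and 4.45% higher. Since 3 of the 6 probes read Cd44, the counts of hyaluronan probes rest on 4 genes. Those genes were proposed with a lower Cd44 signal in these arrays known, and the lists with earlier results known. The shares therefore describe the set and are no test of it.

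**Figure D5:**
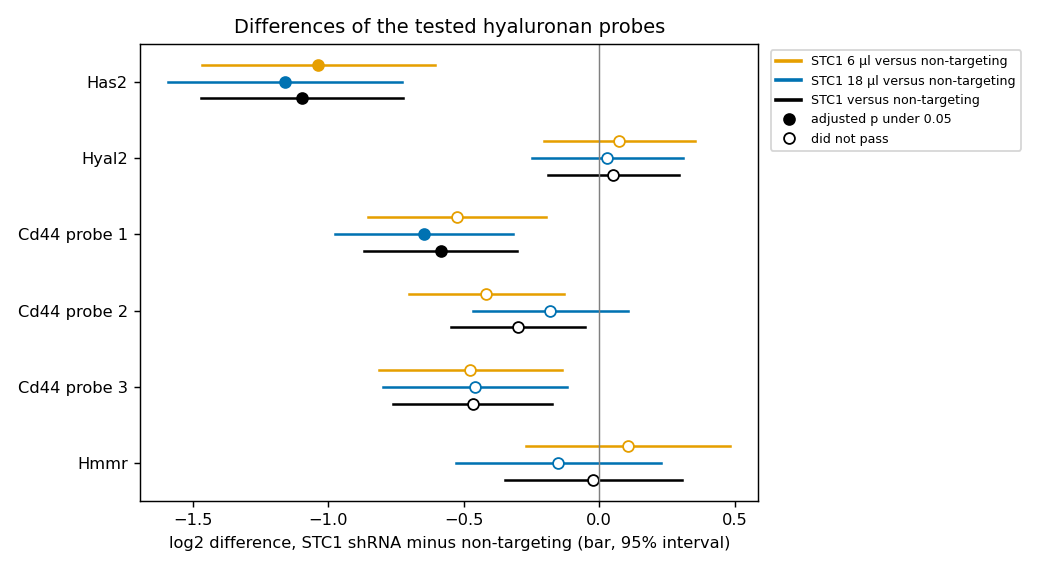
Log2 difference with its 95% interval (x axis) for each tested probe (y axis) in the comparisons of Stc1 at 6 µl, Stc1 at 18 µl and both with the 2 non-targeting arrays, filled where the adjusted p is under 0.05. Has2 is filled in all 3 comparisons and the brightest Cd44 probe at 18 µl and over both volumes, while the intervals of Hyal2 and Hmmr cross 0.

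No difference between the volumes of Stc1 virus was detectable in these genes. None of the 6 probes passed between 18 and 6 µl by limma, none had an unadjusted p under 0.05, and 0% of all tested probes passed, with 1230 of 18076 at an unadjusted p under 0.05. Has2 differed by -0.12 (95% interval -0.55 to 0.31) and the brightest Cd44 probe by -0.12 (-0.45 to 0.21). The widest gap was that of Hmmr, near background, at -0.26 (-0.63 to 0.12, limma adjusted p = 0.807). The second Cd44 probe followed, with a difference of 0.24 (-0.05 to 0.52, limma adjusted p = 0.748).

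The genes whose values followed the brightest Cd44 probe most closely over the 6 arrays were Tulp3, Purb, Erfe, Ubqln4 and Galnt10, out of 9753 compared. Likeness was the root mean square difference of log2 values, each gene centred on its own mean, and ran from 0.031 for Tulp3 to 0.066 for Galnt10. Tulp3 stood at 0.39 and 0.42 above its mean on the non-targeting arrays and at -0.04, -0.24, -0.15 and -0.38 on the Stc1 arrays. By the same measure Has2 was 0.312 from Cd44, Hyal2 0.311 and Hmmr 0.303, at ranks 3816, 3815 and 3545 of the genes compared. The measure was not scaled to the size of a change. A gene that fell more than Cd44, as Has2 did (-1.10 against -0.59), can thus rank with genes that hardly moved.

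Markers of other cell types were mostly below background. Of the 8 fibroblast markers 6 were detected on no array (Col1a1, Col1a2, Col3a1, Thy1, Dcn and Lum), and Pdgfra was detected on all 6. Pdgfrb, a receptor of fibroblasts and pericytes, was detected on no non-targeting array and on all 4 Stc1 arrays. It thus met the detection filter through the Stc1 arrays alone. Set against the lowest signal above background on the non-targeting arrays, Pdgfrb was at least 1.48-fold higher after neqc. Its mean log2 intensity was 5.32 against 4.46 (limma adjusted p = 0.0201), where the non-targeting values were below background. Since the probe entered the fit through the higher group alone, this p-value is not taken as support for a change. With the values below background, its log2 difference was 0.86. It was 0.47 with the authors' processed values and 0.40 with background correction without the negative controls. The size of the Pdgfrb difference thus depended on the processing. It did not pass in 5 of 13 alternatives: without either non-targeting array, without either Stc1 array at 6 µl and with no filter on dim probes (limma adjusted p between 0.0562 and 0.122). The mean log2 level of the fibroblast list was 5.10 to 5.14 on the non-targeting and 5.20 to 5.32 on the Stc1 arrays, and its part in the changes of Has2 and Cd44 was not tested. The leukocyte markers Ptprc, Adgre1 and Itgam and the endothelial markers Pecam1, Cdh5 and Tek were detected on no array. The other leukocyte markers with a probe were detected on Stc1 arrays alone, Cd3e on 2 and Csf1r on 3, and the endothelial marker Kdr on 1 non-targeting and 3 Stc1 arrays. Their log2 differences were 0.20, 0.18 and 0.11 and none passed (limma adjusted p between 0.328 and 0.688). The mean log2 level of the leukocyte list was 4.41 to 4.43 on the non-targeting and 4.44 to 4.60 on the Stc1 arrays. That of the endothelial list was 4.41 to 4.54 and 4.41 to 4.59, and the part of either list in the changes of Has2 and Cd44 was not tested.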

How the data were processed

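RNA of 6 samples was labelled with biotin and hybridised to Illumina bead arrays, per the labels' protocols. The deposited table of unprocessed values holds linear bead intensity, which the file headers call non-normalised and the authors left unscaled. Each intensity is paired with a detection p-value, per the file headers. The authors' processed values are log2 values, and quantile normalisation of the deposited log2 intensities returned them within 0.000154 (largest median absolute difference of an array). The scanner software was not given in the sources used here.

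Intensities were passed through neqc (R 4.3.3, limma 3.58.1; background from the 936 negative controls that the detection p-values imply, offset 16, quantile normalisation, log2). The offset understates folds of dim probes, and quantile normalisation removes a shift shared by most transcripts. Probes detected at p under 0.05 on at least 2 arrays (18076 of 45281) were fitted with lmFit and eBayes, 1 mean for each of 3 groups, two-sided, with Benjamini-Hochberg adjustment over all tested probes. Passing, called, rose and fell mean an adjusted p under 0.05. The residual degrees of freedom were 3 and the prior ones 5.66, and the number of arrays limits the precision. Symbols came from the platform annotation through gene identifiers (34885 probes with 1 symbol, 18 with several, 10378 unnamed). For genes outside the hyaluronan set the brightest tested probe stood for the gene. A probe below background in a group has only a bound, set by the lowest signal above background on each array of that group.

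Named were all 8 hyaluronan genes, Stc1, list genes that passed or else the 3 of smallest p, and the 5 genes closest to Cd44. Members and lists were chosen with earlier results of these data known. Alternatives were the authors' values, normexp without negative controls (offset 50), median scaling, no filter, detection on all arrays, 2 groups, volume or replicate number as a block, and each array left out. The fit was tested on simulated data.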

Additional observations from a re-analysis of the deposited data

How the results depend on the processing

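The number of hyaluronan probes that passed in Stc1 against non-targeting was 2 of 6. It was 4 with normexp without negative controls, 1 with median scaling, 1 with no filter on dim probes, and 0 to 2 when leaving out 1 array in turn. At 6 µl it was 1, against 4 with the authors' values, 4 with normexp, 0 with no filter and 0 to 1 without single arrays. At 18 µl it was 2, against 1 with median scaling, 0 with no filter and 0 to 1 without single arrays. With no filter 45281 probes were tested in place of 18076. Leaving out an array of a pair assumes that the lone array varies like the others. Over all tested probes 1407 passed in Stc1 against non-targeting, against 2288 with the authors' values, 2355 with normexp, 2528 with median scaling, 787 with no filter and 148 to 1454 without single arrays. It was 148 and 180 without non-targeting replicates 1 and 2, 697 and 325 without replicates 1 and 2 of Stc1 at 6 µl, and 684 without replicate 2 at 18 µl. At 6 µl the 691 became 1569, 1661, 2985 and 277, and 18 to 916 without single arrays. At 18 µl the 717 became 1446 and 1544 with the authors' values and normexp, 385 with no filter, and 85 to 392 without single arrays. Between volumes the 0 became 121 with median scaling and 0 to 1 without single arrays. Median scaling raised the share of higher calls from 48.9% to 80.8%, from 52.4% to 91.3% at 6 µl and from 42.4% to 56.0% at 18 µl, and moved the median of all probes to 0.149. The cause of these shifts was not tested.

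Has2 and the 3 Cd44 probes kept a negative log2 difference in all 14 alternatives of the main comparison (Has2 -1.21 to -0.75). Signs were unsettled only for values that did not pass. With median scaling Hmmr was at 0.043, Cemip2 at 0.057 and the third Cd44 probe at -0.18 between volumes. Without single arrays Hmmr ran from -0.16 to 0.060 (-0.024 to 0.27 at 6 µl), Cemip2 from -0.26 to 0.028, Hyal2 at 18 µl from -0.00089 to 0.062, Has2 between volumes from -0.36 to 0.11 and the third Cd44 probe between volumes from -0.12 to 0.16.

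The Stc1 labels number the arrays of each volume 1 and 2, but do not say that a number marks a shared culture or day. The non-targeting labels carry A (6 µl) and B (18 µl), which were numbered 1 and 2 here. In that group replicate number and virus volume therefore cannot be told apart. The differences between replicates correlated at 0.005 between the Stc1 groups. With the non-targeting difference, also one of volume, they correlated at -0.02 for Stc1 at 6 µl and -0.11 at 18 µl. The replicate block thus mixes number with volume for the non-targeting arrays. With it 2 hyaluronan probes passed in the main comparison, 1 at 6 µl and 1 at 18 µl, where the brightest Cd44 probe was lost (limma adjusted p = 0.0568). Of all tested probes 1295, 615 and 608 passed. The precision of Has1, Hyal1, Ugdh and Hmmr was limited by signal near background.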
